A study of Mus musculus with 8 samples.

Results

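The 8 genes described here encode the enzymes that doxorubicin acts on or that share their chemistry, and the pumps that carry the drug out of cells. They are the topoisomerase genes Top1, Top2a, Top2b, Top3a and Top3b and the transporter genes Abcb1a, Abcb1b and Abcc1. A probe was counted as a member when the platform annotation gave it one of these symbols, and 9 of 25697 probes were found, 2 for Top1 and 1 for each other gene. Measurements came from 8 one-colour bead arrays of C57BL/6J mouse embryonic fibroblasts, connective tissue cells grown from embryos. The 4 groups of 2 arrays were staggerer cells given doxorubicin for 12 h, untreated staggerer cells, wild type cells given doxorubicin for 12 h, and untreated wild type cells. Staggerer cells carry a deletion in Rora, which encodes the nuclear receptor RORα. The labels give no drug dose and no number of embryos or isolates, so genotype and isolate cannot be told apart. Whether the pair of arrays in each group stands for separate cultures is not stated either, so a p-value here reflects how far arrays differed, possibly for technical reasons alone.

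Topoisomerases cut DNA, let strands pass and reseal the cut. Type II enzymes cut both strands, and anthracyclines such as doxorubicin trap the cut intermediate, so that the enzyme becomes a source of DNA breaks. Top2a is made mainly by dividing cells, while Top2b is also made by cells that have stopped dividing. Top1 and the type IA enzymes Top3a and Top3b cut a single strand. In mice Abcb1a and Abcb1b each encode a P-glycoprotein, an ATP-driven pump of the plasma membrane, and Abcc1 encodes the multidrug resistance protein MRP1. Abcb1a, Abcb1b and Abcb4 follow each other along chromosome 5 in the RefSeq annotation. Whether the probes of Abcb1a and Abcb1b tell the 2 messages apart was not tested, since the probe sequences were not used here.

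The promoters of the pair of type II enzymes and of the pair of P-glycoprotein genes are shown because Top2a and Abcb1b were the members with the largest drug responses among those measured on every array. RefSeq promoter sequences (GRCm38.p6, 250 bases before to 50 after the start) were found for 6 of the 8 members. Capitals mark CCAAT on either strand, so that ATTGG is its reverse complement. The Top2a window is chr11:99024140-99024439 on the minus strand, the Top2b window chr14:16364956-16365255 on the plus strand, the Abcb1b window chr5:8797897-8798196 on the plus strand and the Abcb1a window chr5:8566841-8567140 on the plus strand.
Top2a: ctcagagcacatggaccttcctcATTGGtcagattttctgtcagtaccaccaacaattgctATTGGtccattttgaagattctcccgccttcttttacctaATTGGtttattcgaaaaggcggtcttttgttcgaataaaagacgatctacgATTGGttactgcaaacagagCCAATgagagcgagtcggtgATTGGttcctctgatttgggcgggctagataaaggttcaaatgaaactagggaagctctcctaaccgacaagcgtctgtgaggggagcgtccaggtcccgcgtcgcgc
Top2b: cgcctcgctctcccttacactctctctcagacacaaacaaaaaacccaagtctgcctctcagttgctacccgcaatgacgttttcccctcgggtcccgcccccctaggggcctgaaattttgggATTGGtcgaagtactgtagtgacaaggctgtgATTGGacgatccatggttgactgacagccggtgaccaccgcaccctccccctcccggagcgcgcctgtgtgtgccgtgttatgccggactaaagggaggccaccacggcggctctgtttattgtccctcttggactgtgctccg
Abcb1b: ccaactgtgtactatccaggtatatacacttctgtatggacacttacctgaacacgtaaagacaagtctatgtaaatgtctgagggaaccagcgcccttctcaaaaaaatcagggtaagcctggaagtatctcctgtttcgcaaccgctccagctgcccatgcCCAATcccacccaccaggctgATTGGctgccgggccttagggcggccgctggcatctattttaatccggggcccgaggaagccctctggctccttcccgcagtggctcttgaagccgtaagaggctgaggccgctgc
Abcb1a: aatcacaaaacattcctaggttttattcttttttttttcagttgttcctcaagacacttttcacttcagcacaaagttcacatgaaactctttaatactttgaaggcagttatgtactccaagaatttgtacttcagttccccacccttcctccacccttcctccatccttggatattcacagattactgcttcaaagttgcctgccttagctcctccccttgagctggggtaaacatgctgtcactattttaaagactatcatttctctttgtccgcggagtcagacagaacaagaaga

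CCAAT, the core of the site read by the factor NF-Y, was present 6 times in the Top2a window, 5 of them as the reverse complement. Of 32851 promoters in the table, 37.4% held at least 1 CCAAT and 0.0791% held 6 or more. Top2b and Abcb1b held 2 matches each, Top3b held 1, and Abcb1a and Top1 held 0, while 11.7% of all promoters held at least 2. GGGCGG, a GC box, was found 1 time in Top2a, Top2b and Abcb1b and 3 times in Top1. Of all promoters 35.7% held any and 10.7% held 3 or more. TTTGAA occurred 2 times each in Top2a and Abcb1a, against 17.9% of promoters with any and 2.31% with 2 or more. The p53 half-site consensus occurred 1 time in Abcb1b, and 8.36% of promoters held it. TGACTCA was in none of the 6 windows and in 5.2% of all promoters. All motifs were searched on both strands, a palindromic match was counted once, and matches of different motifs overlapped 0 times in these windows. A match describes the sequence and does not show a bound site.

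Before the member values, one property of the arrays has to be given. A probe was called detected when under 0.01 of the control rows on its array were as bright. The share of probes detected was 36.0% and 37.3% on the staggerer doxorubicin arrays, against 42.6% to 45.0% on the other 6. Median background-corrected signal of tested probes was 7.55 and 7.64 there, against 8.61 to 9.11 elsewhere (log2). Levels below are log2 intensities after background correction and quantile normalization, a step that gives every array the same distribution. With the arrays left unscaled, the median change of all 9340 genes was -0.56 for doxorubicin in staggerer cells, -0.35 for doxorubicin in wild type cells, -0.80 for staggerer against wild type after doxorubicin, -0.34 for the untreated pair and -0.43 for the interaction. With quantile normalization the same medians were 0.02, -0.09, -0.14, -0.01 and -0.11, and with median centring they were 0.46, -0.04, 0.27, 0.02 and 0.29. The share of called genes that were higher was 48.8%, 46.4%, 44.9%, 51.6% and 45% with quantile normalization, 66.6%, 48.9%, 59.1%, 54.9% and 60.6% with median centring, and 16.7%, 30.5%, 20.1%, 11.7% and 28.5% with unscaled arrays, in the same order.

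Rora and the markers were checked next. Rora had a level of 6.56 and 6.24 in staggerer cells with doxorubicin, 6.58 and 6.57 in untreated staggerer cells, 7.99 and 7.92 in wild type cells with doxorubicin, and 7.72 and 8.08 in untreated wild type cells. Rora was not detected on either array of staggerer cells with doxorubicin. Without the drug its staggerer minus wild type difference was -1.33 ± 0.17 (SE, limma adjusted p = 0.00223), though the place of its probe relative to the deletion was not determined. All 9 fibroblast markers on the array were detected on 2 or more arrays. Their summed level lay between 15.73 and 16.02 on every array, but bright markers such as Vim carry that sum. Pdgfra averaged 6.87, 9.43, 9.22 and 11.31 in treated and untreated staggerer and treated and untreated wild type cells, and Lum 10.77, 10.09, 8.08 and 9.17. Of 7 macrophage markers 4 were detected on at least 2 arrays, including Lyz2 and Fcer1g, while Ptprc and Itgam were at background on every array. Their summed level was 11.37 to 11.44 in staggerer cells with doxorubicin, 10.41 to 10.45 in untreated staggerer cells, 12.43 to 12.55 in treated wild type cells and 12.37 to 12.41 in untreated wild type cells. Epithelial and mesothelial markers (5 of 6 detected on at least 2 arrays, Cdh1 at background) summed to 9.25 to 9.45, 8.13 to 8.24, 11.2 to 11.3 and 10.79 to 10.87 in the same groups. Of 6 endothelial markers 1 was detected on at least 2 arrays, with Pecam1, Cdh5, Kdr and Tie1 at background throughout, and their sums were 7.78 to 7.97, 7.96 to 8.08, 8.34 to 8.4 and 8.53 to 8.54. Neural markers (4 of 7 detected) summed to 11.78 to 11.98, 10.67 to 10.73, 11.26 to 11.58 and 10.43 to 10.5. The macrophage, endothelial, and epithelial and mesothelial sums were lower on every staggerer array than on every wild type array. The endothelial marker behind that difference was Emcn, which averaged 5.32, 5.28, 7.23 and 7.52 in the same groups. Pecam1, at background, averaged 5.29, 5.32, 4.91 and 4.88, so endothelial markers were not lower as a class. The part of these sums in the member results was not tested.

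Of the 8 members, Top1, Top2a, Top3b and Abcb1b were detected on all 8 arrays. Top2b, Top3a and Abcc1 were detected on 2 arrays each, in 1 group only, and entered the tests through that group. Abcb1a was detected on 0 of 8 arrays and was not tested. The levels on each array are plotted for all 9 probes.

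**Figure D1:**
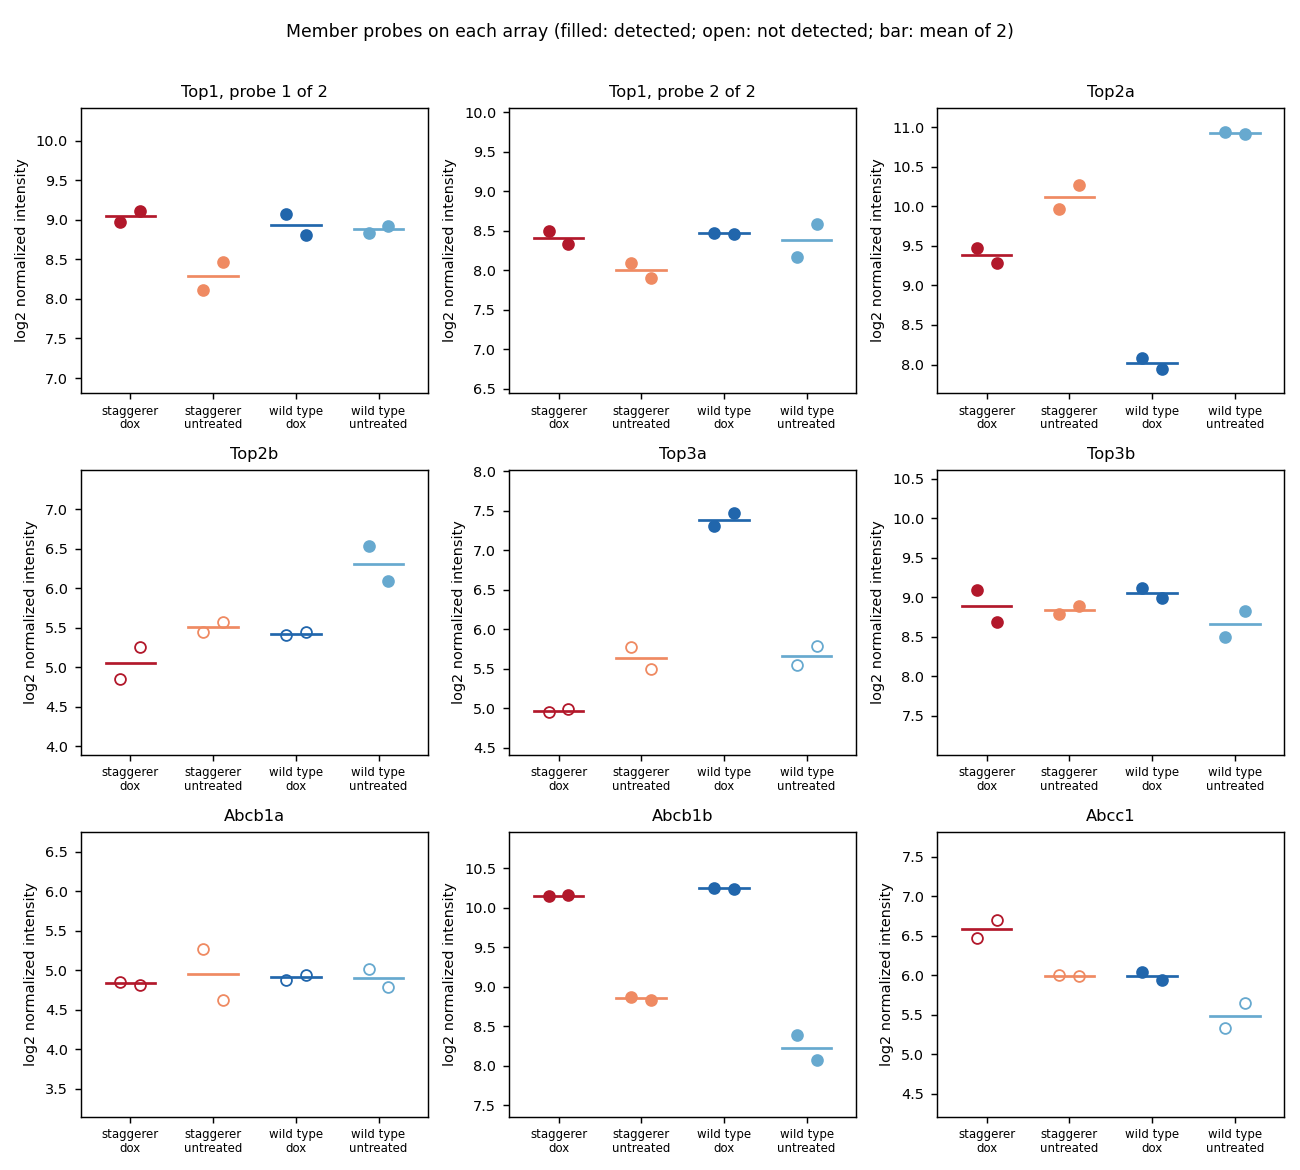
Log2 normalized intensity (vertical axis) of the 9 member probes on each of the 8 arrays, with 1 panel per probe and the 4 groups along the horizontal axis. Filled points were detected, open points were not, and bars are means of 2 arrays. Top2a runs from 7.95 to 10.94 and Abcb1b from 8.07 to 10.24, while Abcb1a has only empty symbols in every group.

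Top2a, which encodes the topoisomerase II of dividing cells, fell with doxorubicin in both genotypes, and fell further in wild type cells. Its deposited intensity was 579 and 497 in staggerer cells with doxorubicin, against 1255 and 1452 in untreated staggerer cells. Treated wild type cells gave 470 and 432, against 2995 and 2443 in untreated wild type cells. Both treated groups were thus dimmer than both untreated groups, with no overlap. On the normalized scale Top2a was 9.48 and 9.28 in treated and 9.97 and 10.27 in untreated staggerer cells, a change of -0.74 ± 0.15 (SE, limma adjusted p = 0.00305). In wild type cells it was 8.09 and 7.95 with doxorubicin and 10.94 and 10.92 without, a change of -2.91 ± 0.15 (adjusted p = 7.59e-06), or 7.51-fold lower. The 4 groups did not overlap and ran, from low to high, treated wild type, treated staggerer, untreated staggerer and untreated wild type. Of the 9340 genes tested, 9 had a lower fitted change than Top2a in wild type cells. In cultures like these, fewer cells that make a message and less message per cell cannot be told apart.

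The drug effect on Top2a differed between the genotypes by 2.17 ± 0.21 (staggerer minus wild type, log2 scale, limma adjusted p = 0.000225), and this difference passed in all 17 alternatives tried. In untreated cells Top2a was lower in staggerer than in wild type, by -0.81 ± 0.15 (adjusted p = 0.0109). That call was lost without either untreated wild type array (adjusted p = 0.0781 and 0.069) and without the first untreated staggerer array (adjusted p = 0.077), with changes of -0.66 to -0.82. After doxorubicin the order turned, and Top2a was higher in staggerer than in wild type cells by 1.36 ± 0.15 (adjusted p = 0.000101). With unscaled arrays this last difference was 0.34 and did not pass (adjusted p = 0.138). The deposited intensities averaged 538 in treated staggerer and 451 in treated wild type cells.

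Abcb1b, the P-glycoprotein gene measured above background, rose with doxorubicin in both genotypes. Its deposited intensity was 861 and 820 in staggerer cells with doxorubicin and 678 and 655 in untreated staggerer cells. In wild type cells it was 1539 and 1480 with the drug and 699.5 and 508 without it. Treated arrays were brighter than untreated ones of the same genotype in every case. Normalized levels were 10.14 and 10.16 in treated and 8.87 and 8.83 in untreated staggerer cells, a rise of 1.30 ± 0.14 (limma adjusted p = 0.000141, 2.46-fold). The wild type levels were 10.24 and 10.24 with doxorubicin and 8.39 and 8.07 without, a rise of 2.01 ± 0.14 (adjusted p = 2.38e-05, 4.04-fold). The staggerer rise was 0.41 with unscaled arrays and did not pass there (adjusted p = 0.0971). In wild type cells 18 of 18 alternatives kept the call.

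The rise of Abcb1b was smaller in staggerer cells by -0.72 ± 0.19 (interaction, limma adjusted p = 0.014), a difference that passed in all 17 alternatives (adjusted p up to 0.0461). Untreated staggerer cells had more Abcb1b than untreated wild type cells, by 0.62 ± 0.14 (adjusted p = 0.0239). This untreated difference was lost in 7 of 18 alternatives, among them unscaled arrays (0.26), no detection filter (adjusted p = 0.0567) and the removal of 1 of 5 arrays. Without the second untreated wild type array it was 0.46 (adjusted p = 0.136), without the untreated staggerer arrays 0.60 and 0.65 (adjusted p = 0.124 and 0.108), and without either treated wild type array 0.62 (adjusted p = 0.0503). After doxorubicin the genotypes had an estimated difference of -0.09 (95% interval -0.41 to 0.22, adjusted p = 0.549). With unscaled arrays that difference was -0.99 (adjusted p = 0.000711), and with median centring it was 0.09 (adjusted p = 0.58). From low to high the groups ran untreated wild type, untreated staggerer, treated staggerer and treated wild type. No neighbouring groups overlapped, but the interval of the difference between the last pair spans 0.

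**Figure D2:**
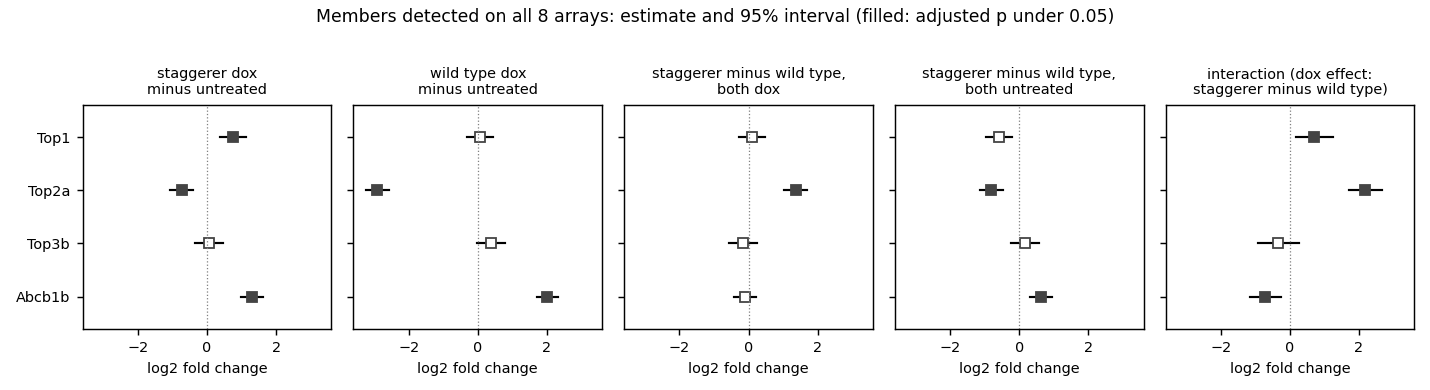
Log2 fold change (horizontal axis) of the 4 members detected on all arrays in 5 comparisons, with squares for estimates and lines for 95% intervals. Filled squares passed an adjusted p of 0.05. Top2a lies at -0.74 in staggerer and -2.91 in wild type cells, and Abcb1b at 1.30 and 2.01.

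Top1 encodes the type IB enzyme that relaxes DNA ahead of polymerases, and it is the target of camptothecins rather than of doxorubicin. Its brighter probe gave normalized levels of 8.98 and 9.12 in treated and 8.11 and 8.47 in untreated staggerer cells. Treated wild type cells gave 9.07 and 8.81 and untreated wild type cells 8.84 and 8.92. Untreated staggerer cells were thus the low group, and treated wild type cells overlapped both other groups. The level rose in staggerer cells by 0.76 ± 0.16 (limma adjusted p = 0.0044), but with unscaled arrays the change was -0.24 (adjusted p = 0.294). Deposited intensity was lower in treated than in untreated staggerer cells, at 443 and 457 against 458 and 546, so the direction depends on the scaling. The second Top1 probe changed by 0.41 ± 0.17 in staggerer cells and did not pass (adjusted p = 0.0632 over probes). In wild type cells the brighter probe changed by 0.06 (95% interval -0.32 to 0.44, adjusted p = 0.78) and the second by 0.09.

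The Top1 interaction was 0.70 ± 0.23 (limma adjusted p = 0.0314) and was lost in 7 of 17 alternatives. It was 0.01 with unscaled arrays (adjusted p = 0.97) and 0.70 with no detection filter (adjusted p = 0.065). Leaving out 1 array at a time, it was lost without either untreated wild type array (0.74 and 0.66), the second treated wild type array (0.57), the first untreated staggerer array (0.52) or the second treated staggerer array (0.63), with adjusted p from 0.0604 to 0.105. The second probe gave 0.33 ± 0.24 (adjusted p = 0.271 over probes). In untreated cells the brighter probe had a staggerer minus wild type difference of -0.60 ± 0.16 that missed the threshold (adjusted p = 0.0533), and 10 of 18 alternatives put it past 0.05. Among them were no background correction (-0.42, adjusted p = 0.0168), unscaled arrays (-0.96, adjusted p = 0.00416) and the loss of either treated staggerer array (adjusted p = 0.0404). After doxorubicin the difference was 0.11 (95% interval -0.27 to 0.49), and -0.94 with unscaled arrays (adjusted p = 0.000673).

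Top3b encodes a type IA enzyme that, with its partner TDRD3, also acts on RNA. Its levels were 9.09 and 8.69 in treated staggerer cells, 8.79 and 8.89 in untreated staggerer cells, 9.12 and 8.99 in treated wild type cells and 8.50 and 8.83 in untreated wild type cells. All groups overlapped except treated and untreated wild type cells, and treated wild type and untreated staggerer cells. No comparison passed: the drug effect was 0.05 in staggerer cells (95% interval -0.36 to 0.47, limma adjusted p = 0.809) and 0.39 in wild type cells (95% interval -0.03 to 0.80, adjusted p = 0.0986). Without either treated staggerer array, the wild type value passed (adjusted p = 0.0461). With unscaled arrays Top3b was lower in treated than in untreated staggerer cells by -0.96 (adjusted p = 0.000918) and lower than in treated wild type cells by -1.21 (adjusted p = 0.000101). The interaction, -0.34 ± 0.25 (adjusted p = 0.279), became -1.03 there (adjusted p = 0.007).

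Top3a, the type IA enzyme that works with the BLM helicase, was detected in treated wild type cells alone. Its deposited intensity was 170 and 171 in treated staggerer cells and 202 and 194.5 in untreated staggerer cells. It was 331 and 351 in treated wild type cells, against 226 and 218 in untreated wild type cells. The 99th percentile of control rows lay between 215.5 and 261 on these 8 arrays, so the treated wild type arrays stood alone above it. Top3a was at least 2.48-fold higher in treated than in untreated wild type cells (limma adjusted p = 7.43e-05, with measured means of 7.39 and 5.67). It was at least 1.53-fold lower in treated staggerer than in treated wild type cells (adjusted p = 1.24e-05, measured means 4.97 and 7.39). Each bound sets the bright group's mean against the lowest detected signal on the dim arrays, on the background-corrected scale. Without background correction the fitted changes were 0.68 and -0.93 (log2), so the first bound holds only with that correction. Both calls held in the 17 alternatives that tested Top3a. Top3a entered the tests through its bright group alone, so neither the p-values of comparisons with that group nor the alternatives add separate support. Both staggerer groups were below background, so no fold is given between them. Their fitted change passed the threshold (adjusted p = 0.00584) but turned to 0.39 with median centring (adjusted p = 0.0745). The fitted interaction was -2.38 ± 0.21 (adjusted p = 0.000207), and since 3 of its 4 groups were below background that value is not a measured size.

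Top2b, the type II enzyme present through the cell cycle, was detected in untreated wild type cells alone. Intensities were 164 and 183 in treated staggerer, 189 and 198 in untreated staggerer, 190 and 191 in treated wild type and 303.5 and 236 in untreated wild type cells. The second of those wild type arrays lay barely above the 99th percentile of its control rows, which was 235. On the background-corrected scale Top2b was at least 1.28-fold lower in treated than in untreated wild type cells (limma adjusted p = 0.00541). That call held in 17 of 17 alternatives, though without background correction the change was -0.29 (log2), smaller than the bound. Top2b entered the tests through its bright group alone, so neither the p-values of comparisons with that group nor the alternatives add separate support. Among untreated cells it was at least 1.14-fold lower in staggerer than in wild type (adjusted p = 0.0335), a call lost in 10 of 17 alternatives. These include no background correction (adjusted p = 0.106), the replicate block (adjusted p = 0.057) and the removal of 1 of 5 arrays. Without the first untreated wild type array its adjusted p was 0.19, without the untreated staggerer arrays 0.16 and 0.119, and without either treated wild type array 0.0641. With 3 of its 4 groups below background, no size is given for its interaction.

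Abcc1, which exports glutathione-linked compounds as well as anthracyclines, gave nearly the same deposited intensity everywhere. It was 217 and 220 in treated staggerer cells, 212.5 and 215 in untreated staggerer cells, 222.5 and 216 in treated wild type cells, and 213 and 210 in untreated wild type cells. The arrays thus ran from 210 to 222.5. Only the treated wild type arrays were called detected, at 222.5 and 216 against 99th percentiles of control rows of 220 and 215.5. The fit called Abcc1 higher with doxorubicin in both genotypes (limma adjusted p = 0.00923 in staggerer and 0.0217 in wild type cells) and higher in treated staggerer than in treated wild type cells (adjusted p = 0.00747). No fold is given for any of these calls. In the staggerer comparison neither group was detected. In wild type cells the treated mean did not exceed the lowest detected signal on the untreated arrays. After doxorubicin the group called higher was the one not detected. Abcc1 entered the tests through treated wild type cells alone, so the calls that use that group add no separate support. Without background correction all 3 calls were lost (adjusted p = 0.0712, 0.19 and 0.0638), and with unscaled arrays the difference after doxorubicin turned to -0.15. The wild type call was also lost without the first untreated wild type array or either treated wild type array (adjusted p = 0.139, 0.105 and 0.0595).

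Abcb1a, the other P-glycoprotein gene, was not well above background on any array. Intensities were 164 and 161 in treated staggerer cells, 181 and 143.5 in untreated staggerer cells, 161 and 166 in treated wild type cells, and 193 and 161 in untreated wild type cells. Every value lay below the 99th percentile of the control rows of its array, and the groups overlapped. With no array above background, no drug response can be given for Abcb1a.

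**Figure D3:**
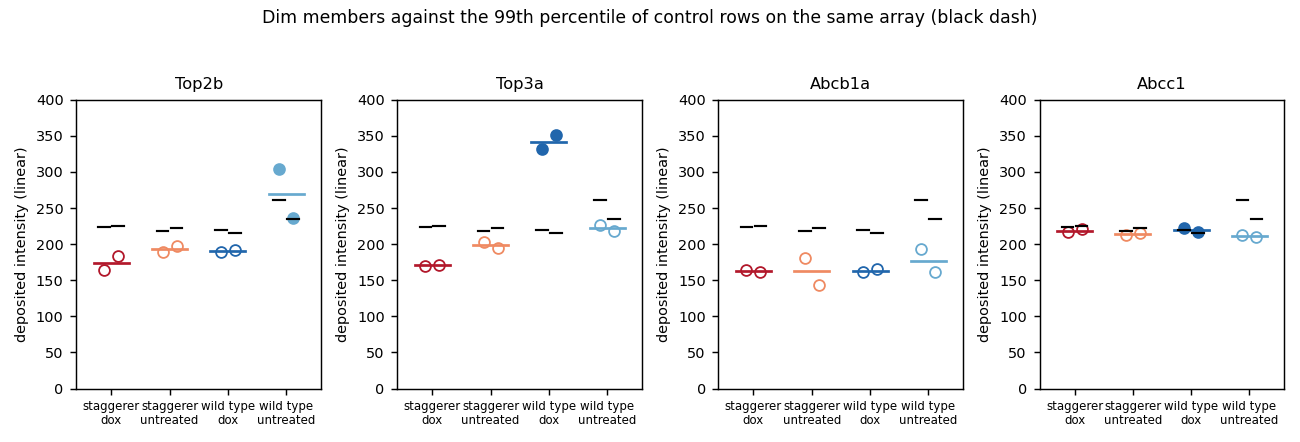
Deposited linear intensity (vertical axis, from 0) of the 4 dim members on each array, by group, with filled points detected, open points not detected and coloured bars for means of 2. Black dashes mark the 99th percentile of control rows on the same array. Top3a rises above the dashes in treated wild type cells, at 331 and 351, and Abcc1 stays between 210 and 222.5 on every array.

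The members can be read against all genes, most of which moved with the drug. For doxorubicin in staggerer cells, 2 of the 4 members detected on all arrays rose (Top1 and Abcb1b), 1 fell (Top2a) and Top3b did not pass. Of the 6472 genes detected on all arrays, 68.1% were called there, 36.7% higher and 31.4% lower. In wild type cells 1 of 4 rose, 1 fell and 2 did not pass, against 59.9% of those genes called (26.5% higher, 33.4% lower). Treated staggerer against treated wild type cells gave 1 member higher of 4, against 75.4% called (39.0% higher, 36.4% lower). In untreated cells 1 of 4 was higher and 1 lower in staggerer, against 13.0% called (7.18% higher, 5.86% lower). The interaction was called for 3 of 4, against 62.8% (32.2% higher, 30.6% lower). Over the 7 tested members, whose dim ones passed the filter through 1 group, 5, 5, 3, 3 and 4 were called in the same order, against 65.0%, 56.9%, 72.6%, 13.0% and 59.2% of 9340 genes. The higher ones numbered 3, 3, 2, 1 and 2, against 31.8%, 26.4%, 32.5%, 6.68% and 26.6% of all genes. The lower ones numbered 2, 2, 1, 2 and 2, against 33.3%, 30.5%, 40.0%, 6.27% and 32.6%. The shares of 4 or 7 genes are too coarse to set the members apart from the background. Median member changes were 0.05, 0.39, -0.09, -0.03 and 0.09, beside 0.02, -0.09, -0.14, -0.01 and -0.11 over all genes tested, in the same order. The 2 drug comparisons share no arrays, while each genotype comparison shares arrays with both.

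The dependence on scaling is shown for the members detected on all arrays. Top2a fell with doxorubicin in both genotypes, and Abcb1b was higher with doxorubicin in both, under all 4 scalings shown, although the staggerer rise of Abcb1b did not pass on unscaled arrays. Set against the median of all genes, the staggerer change of Top2a was -0.76 with quantile normalization and -1.10 with median centring. That of Abcb1b was 1.27 and 0.98 in the same settings, and that of Top1 0.74 and 0.32.

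**Figure D4:**
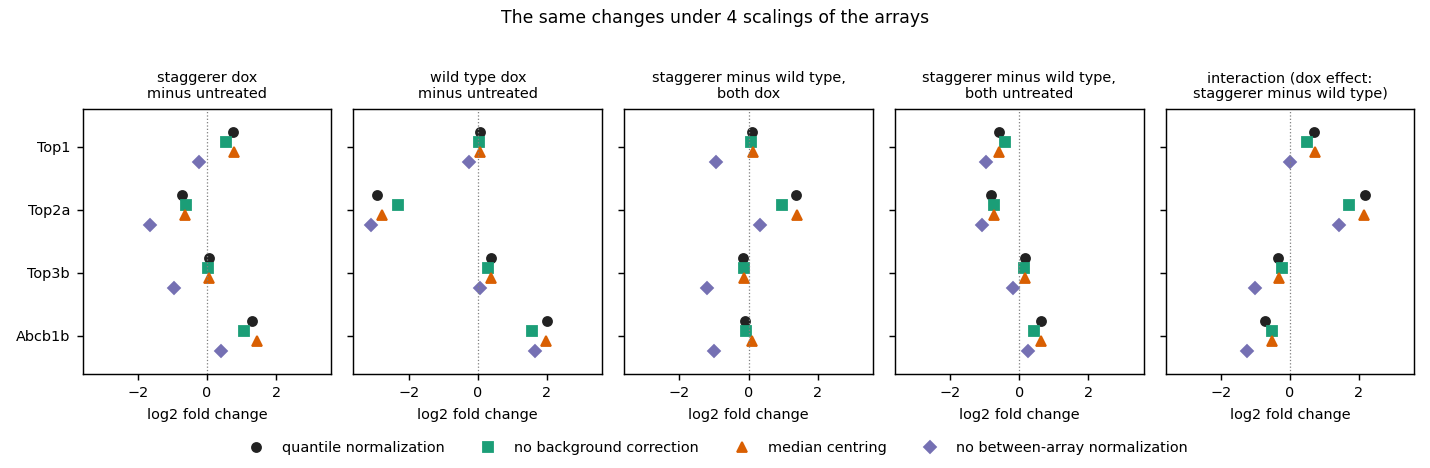
Log2 fold change (horizontal axis) of Top1, Top2a, Top3b and Abcb1b in 5 comparisons, with 1 symbol for each of 4 scalings of the arrays. The unscaled values lie furthest left in the comparisons with treated staggerer cells and also in the untreated pair. For doxorubicin in staggerer cells Top1 moves to -0.24 and Top3b to -0.96.

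The genes nearest to each member were named by the root mean square difference over the 8 arrays, after each gene was centred on its own mean. For Top2a these were Cxcl12, a chemokine gene (0.19), Pold2, a DNA polymerase delta subunit (0.21), and Snx24, a sorting nexin (0.29), while Top2a itself varied by 1.07 about its mean. For Abcb1b they were Marchf2, a membrane ubiquitin ligase (0.15), Oplah, an enzyme of glutathione turnover (0.155), and the kinesin gene Kifc2 (0.16), against a spread of 0.86. Cxcl12 averaged 13.45 in treated staggerer, 14.13 in untreated staggerer, 11.67 in treated wild type and 14.88 in untreated wild type cells. Top3a, below background on 6 of 8 arrays, lay nearest to Tango2 (0.14), Unc119b (0.15) and Ube2o, a ubiquitin-conjugating enzyme gene (0.15). Top1 lay nearest to Fam162a (0.13), the iron transporter gene Slc11a1 (0.13) and the elongation factor gene Eef1b2 (0.14), against a spread of 0.32. Top2b and Abcc1 were below background on 6 arrays as well, and for all 3 of these dim genes the likeness rests largely on values at background. Top2b lay nearest to Eps8 (0.145), Rbmx (0.16) and Hnrnpm (0.17), and Abcc1 to Phtf1 (0.07), Il18bp (0.07) and Bace1 (0.07). Likeness was measured among 8624 other named genes.

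Related genes were read from lists of the repair of trapped topoisomerases, other transporters, drug metabolism, proliferation and promoter-binding factors. Their counts stand beside all genes tested, of which 31.8% rose and 33.3% fell with doxorubicin in staggerer cells. In wild type cells 26.4% of all genes rose and 30.5% fell. In treated cells 32.5% of all genes were higher and 40.0% lower in staggerer than in wild type. For the interaction 26.6% were higher and 32.6% lower. With unscaled arrays 61.9%, 60.1%, 72.8%, 27.5% and 58.7% of all genes were called in the 5 comparisons, in the order used above. With median centring these shares were 74.8%, 57.8%, 76%, 14.5% and 65.1%. How many of those genes were higher is given with the array signals above. Among 12 tested proliferation genes, 8 fell and 3 rose with doxorubicin in wild type cells (median -0.71, all genes -0.09), while 4 fell and 4 rose in staggerer cells (median 0.10, all genes 0.02). The fallen ones in wild type cells include Mcm2, a subunit of the replicative helicase, at -1.84 ± 0.12 (limma adjusted p = 1.84e-05) and Pcna, the polymerase clamp, at -1.21 ± 0.16. In staggerer cells Mcm2 rose by 0.54 ± 0.12 and Pcna by 0.86 ± 0.16, and their interactions were 2.38 ± 0.16 and 2.07 ± 0.23 (adjusted p = 0.000164 and 0.000357). Plk1, a mitotic kinase gene, fell in staggerer cells by -0.85 ± 0.18 and had 0.13 ± 0.18 in wild type cells. Aurka, another mitotic kinase gene, rose in wild type cells by 0.97 ± 0.15 and had 0.10 ± 0.15 in staggerer cells. The interaction was called higher for 5 genes and lower for 2, but for 2 and 4 with unscaled arrays (median -0.23, against 0.21 as reported). With unscaled arrays the staggerer counts were 0 higher and 8 lower, Mcm2 turned to -0.39 and Pcna to -0.03 in staggerer cells. Pcna was detected on 1 of 2 treated wild type arrays.

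Among 11 tested genes for cleavage complex repair and topoisomerase partners, 1 rose and 3 fell in staggerer cells, and 2 rose and 4 fell in wild type cells. These 4 and 6 of 11 called compare with 65.0% and 56.9% of all genes called. In treated cells 2 were higher and 7 lower in staggerer than in wild type (median -0.65, all genes -0.14). Blm, the helicase partner of TOP3A, was lower there by -1.29 ± 0.12 (limma adjusted p = 6.15e-05) and fell with the drug in staggerer cells by -0.85 ± 0.12. Tdrd3, the partner of TOP3B, rose in staggerer cells by 0.92 ± 0.17 and fell in wild type cells by -0.58 ± 0.17, but turned to -0.04 in staggerer cells with unscaled arrays. Xrcc1, a scaffold of single-strand break repair, rose in wild type cells by 1.48 ± 0.15 and had 0.15 ± 0.15 in staggerer cells. Xrcc6, the Ku70 subunit, was lower in treated staggerer than in treated wild type cells by -1.34 ± 0.14. The interaction was higher for 3 and lower for 5. With unscaled arrays 10 of 11 fell in staggerer cells, where 61.9% of all genes were called and 16.7% of those were higher. Without the first untreated wild type array or the second treated one, the wild type counts were 1 higher and 2 lower. Without the first untreated staggerer array the staggerer counts were 1 and 1, and without that array or the first untreated wild type array the interaction was lower for 3.

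Of 11 other transporter genes tested, 7 rose and 2 fell in staggerer cells (median 0.89, all genes 0.02), and 6 rose and 3 fell in wild type cells (median 0.79, all genes -0.09). With unscaled arrays the staggerer counts were 0 up and 3 down. The largest change was that of Abcb9, a lysosomal peptide transporter gene, with 3.74 ± 0.19 in wild type cells (limma adjusted p = 8.99e-06) and 1.10 ± 0.19 in staggerer cells, an interaction of -2.64 ± 0.27 (adjusted p = 0.000282). It was detected on 1 of 2 untreated wild type arrays. The carnitine transporter gene Slc22a5 rose by 1.22 ± 0.11 in staggerer and 1.09 ± 0.11 in wild type cells. Mvp, the major vault protein, rose in staggerer cells by 0.44 ± 0.11 and fell in wild type cells by -0.93 ± 0.11. Abcb6, a porphyrin transporter gene not detected in either treated group, was at least 1.58-fold lower in treated than in untreated wild type cells on the background-corrected scale. Without that correction its change was -0.45 (log2), smaller than the bound. In treated cells 3 were higher and 3 lower in staggerer than wild type, and in the interaction 2 and 2. With unscaled arrays these counts were 1 and 8 in treated cells and 2 and 5 in the interaction. Without the first untreated staggerer array 0 fell in staggerer cells.

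Genes of anthracycline metabolism, iron and oxidant defence numbered 18 tested. In staggerer cells 6 rose and 3 fell (median 0.26), and in wild type cells 7 rose and 1 fell (median 0.25). The 9 and 8 of 18 called lie below the 65.0% and 56.9% of all genes called. With median centring the staggerer counts were 14 up and 2 down, where 74.8% of all genes were called and 66.6% of those were higher. With unscaled arrays the counts were 4 up and 4 down in each genotype (wild type median -0.06). Cbr3, a carbonyl reductase of the kind that turns doxorubicin into its alcohol, rose in wild type cells by 1.70 ± 0.15 (limma adjusted p = 6.57e-05) and had -0.32 ± 0.15 in staggerer cells (adjusted p = 0.0896). Nqo1, a quinone reductase, rose in staggerer cells by 1.52 ± 0.12 and was higher in untreated staggerer than untreated wild type cells, by 1.30 ± 0.12 (adjusted p = 0.000487). Hmox1, haem oxygenase, rose in wild type cells by 1.57 ± 0.14 and fell in staggerer cells by -0.88 ± 0.14, an interaction of -2.45 ± 0.19 (adjusted p = 0.000164). Tfrc, the transferrin receptor, rose in staggerer cells by 1.46 ± 0.12 and had 0.20 ± 0.12 in wild type cells. In treated cells 6 were higher and 5 lower in staggerer than wild type, and in the interaction 3 and 5. With median centring these counts were 11 and 4 in treated cells and 10 and 4 in the interaction, so the balance of the interaction turned. Without either treated staggerer array the wild type counts were 7 and 3, and without the first untreated wild type array they were 6 and 0.

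Of 10 tested factors known at Top2a or Abcb1 promoters, 1 rose and 6 fell in staggerer cells (median -0.81, all genes 0.02), and 4 rose and 1 fell in wild type cells (median 0.27, all genes -0.09). In the interaction 0 were higher and 7 lower, and in treated cells 0 were higher and 7 lower in staggerer than in wild type. Of all genes 59.2% were called in the interaction (32.6% lower) and 72.6% in treated cells (40.0% lower). On the background-corrected scale Foxo1, a forkhead factor, was at least 3.15-fold lower in treated than in untreated staggerer cells, where it was not detected after the drug. Without that correction its change was -1.33 (log2), smaller than the bound. Mybl2, a factor of the cell cycle promoters, rose in wild type cells by 1.47 ± 0.14 (adjusted p = 0.000125) and had 0.32 ± 0.14 in staggerer cells. Jun fell in staggerer cells by -1.83 ± 0.16, and Egr1 fell there by -0.63 ± 0.12 and rose in wild type cells by 0.90 ± 0.12. With median centring the staggerer counts were 1 up and 3 down and Egr1 turned to 0.22. With unscaled arrays the wild type counts were 4 up and 4 down (median -0.04). Without either treated staggerer array the wild type counts were 5 and 2, and without the first treated wild type array 4 and 2. Of the NF-Y subunits, Nfyb rose in wild type cells by 1.35 and Nfyc fell by -1.01. Nfyb and Nfyc lie outside the rule for named genes and were chosen after their values were seen. Any link of theirs to Top2a was not tested.

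In untreated cells 5 of 11 repair and partner genes and 4 of 12 proliferation genes were lower in staggerer than in wild type, and 0 were higher, against 6.27% of all genes lower. With unscaled arrays 6 and 10 were lower, where 27.5% of all genes were called and 11.7% of those were higher. Fewer of both lists were lower without either treated wild type array. Both counts were 0 without either untreated wild type array or the second untreated staggerer array.

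**Figure D5:**
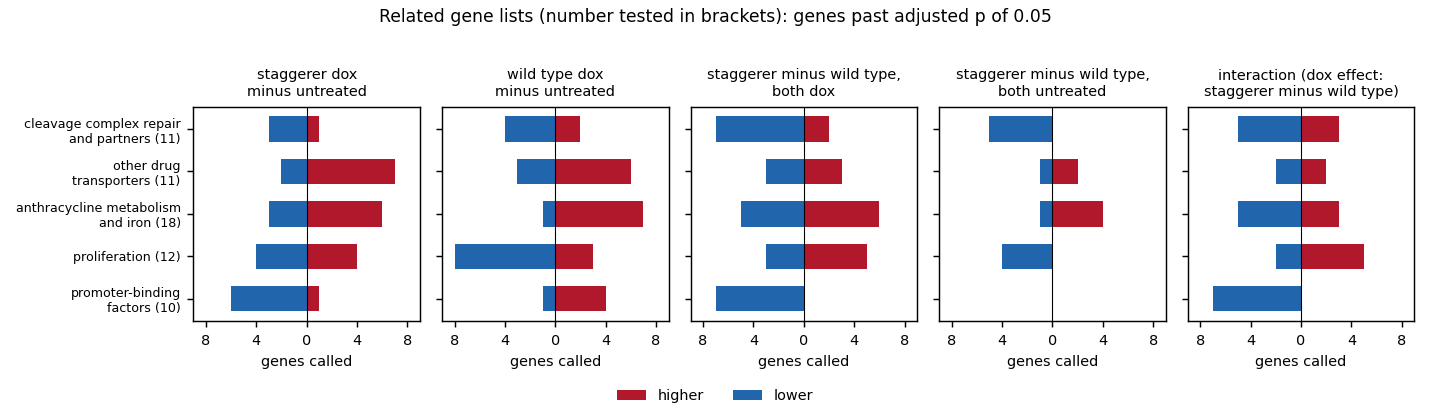
Number of genes called higher (red, to the right) and lower (blue, to the left) in 5 related lists, for 5 comparisons, with the number tested in brackets. Proliferation genes have 8 lower and 3 higher with doxorubicin in wild type cells, against 4 and 4 in staggerer cells.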

How the data were processed

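The deposited non-normalized table holds linear intensity values per probe as the authors' scanner gave them, with no detection p. The authors' second table holds log2 values, equal to quantile-normalized log2 intensity (largest difference 5.1e-09). The series matrix repeats it. Upstream tools and build: not given in the sources used here.

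Of the 1124 control rows 10 bright ones (over 5 median absolute deviations) were left out. Background was corrected with nec (limma 3.58.1, R 4.3.3, offset 16) on the other 1114, followed by quantile normalization and log2. Probes detected on at least 2 of 8 arrays (12362) were reduced to the brightest per gene, which gave 9340 genes, 715 of them unnamed probes. A model with a mean for each group was fitted across the 8 arrays (limma's lmFit and eBayes, 4 residual and 3.44 prior degrees of freedom), with two-sided tests and Benjamini-Hochberg adjustment over all genes at 0.05. The fit was also run on simulated data with independent noise and few changed genes. Those settings differ from these arrays, so that run does not show how the fit performs here. The labels share replicate numbers, but deviations of same-numbered arrays correlated between -0.033 and 0.026 only, so the numbers were not taken to pair arrays. No slide or scan batch is given. The small number of arrays limits precision.

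The text names all members, the 3 genes nearest to each called member, up to 4 genes of each list by smallest p, and Rora. Members, lists and tests were chosen with earlier results of these data known. Alternatives covered background, scaling, filter, probe summary, variance model, replicate block, the arrays fitted and the removal of each array. The authors' values and the setting without background correction were counted separately but are nearly the same. Both gave a Top2a interaction of 1.704, so the counts of alternatives are not counts of independent checks.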

Additional observations from a re-analysis of the deposited data

Results flagged for a closer look

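The drug effect differed between staggerer and wild type cells, by the interaction test of limma, for 3 of the 4 members detected on all arrays, against 62.8% of the genes detected on all arrays. The differences, staggerer minus wild type on the log2 scale, were 2.17 for Top2a, 0.70 for Top1 and -0.72 for Abcb1b. Top2a fell in both genotypes and Abcb1b rose in both, so these differences are in size, and for Top1 the difference was 0.01 with unscaled arrays. Top3a also passed, with a fitted value of -2.38, but it entered the test through treated wild type cells alone and was below background in the other 3 groups, so that value is not a measured size.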

How the results depend on the processing

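The count of called members was 5 for doxorubicin in staggerer cells, 5 for doxorubicin in wild type cells, 3 for staggerer against wild type after doxorubicin, 3 for the untreated pair and 4 for the interaction. Of all genes 65.0%, 56.9%, 72.6%, 13.0% and 59.2% were called, and the counts include dim members that passed the filter through 1 group. Limiting the test to probes detected on all 8 arrays, which leaves 4 members, gave 3, 2 and 1 for the first 3 counts. There 72.7%, 64.6% and 78.7% of all genes were called. With unscaled arrays the first count was 3, against 61.9% of all genes called. For the untreated pair the count was 5 with median centring and 1 with no detection filter, against 14.5% and 4.48% of all genes called. Without 1 array in turn, the counts ranged from 5 to 6, 4 to 6, 3 to 4, 0 to 5 and 3 to 4. Of 608 single-member values under the alternatives, 7 reversed, 41 lost and 21 gained a call. Reversed with unscaled arrays were Top1 in staggerer cells (-0.24) and after doxorubicin between genotypes (-0.94), Top3b in staggerer cells (-0.96) and Abcc1 after doxorubicin between genotypes (-0.15). Reversed with median centring were Top2b in staggerer cells (0.57) and after doxorubicin between genotypes (0.63), and Top3a in staggerer cells (0.39). The cause was not tested. With the replicate block, the untreated count was 2, as Top2b missed the threshold (adjusted p = 0.057), and the other counts were 5, 5, 3 and 4. Of all genes 11.2% were called for the untreated pair with that block. Of all genes, 1210 were called for the untreated pair, against 2569 with unscaled arrays and 520 to 579 without 1 of those 4 arrays.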
